A study of Mus musculus with 4 samples.

Results

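Fibroblast and pericyte genes were examined in bulk RNA sequencing of J558 allografts. The 10 genes were taken by name as markers of these host cells, with earlier results of these data known: the receptors Pdgfra and Pdgfrb, the contractile genes Acta2 and Tagln, the surface proteins Fap and Thy1, and the matrix genes Dcn, Lum, Postn and Fn1. All 10 were measured among the 24421 genes of the tables, and all 10 were among the 13669 genes with enough counts to be tested. J558 is a mouse plasmacytoma line, labelled as a B lymphocyte, and was grown under the skin of the flank of female BALB/c mice, whose age the labels did not give. The vehicle group (Vehicle-1 and Vehicle-2) received 0.5% methylcellulose by mouth, and the treated group (TAK-931-1 and TAK-931-2) received TAK-931, an inhibitor of the replication kinase CDC7, at 60 mg/kg once a day. Tumors were taken on day 6 in both groups, with 2 independent samples per group. No mouse without a tumor and no tumor-free skin was part of the comparison, and J558 is a single cell line, so the groups model 1 tumor in 1 mouse strain.

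Fibroblasts and pericytes are the mesenchymal support cells of a tumor. Fibroblasts lie in the connective tissue, carry the PDGF receptor alpha and lay down collagens, proteoglycans and fibronectin, whereas pericytes wrap small blood vessels, carry the PDGF receptor beta and hold contractile actin filaments. An activated fibroblast, as found in wounds and in many tumors, can add FAP, periostin and smooth muscle actin to its products. None of these genes is restricted to a single cell type: Thy1 is also a surface protein of mouse T cells, fibronectin is also made by macrophages and blood vessel cells, and Acta2 and Tagln also belong to the smooth muscle of arteries.

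Promoter windows of RefSeq (GRCm38.p6, from 250 bases before to 50 bases after the start site) were held for 3 of the 10 genes, Acta2, Postn and Pdgfra. The sequences of Acta2 and Postn are shown, as a contractile and a matrix gene. Both sequences were chosen after values were seen, and the part of any motif in the fold changes was not tested. Each runs 5′ to 3′ on the strand of the gene, from 110 bases before the RefSeq start site through the first 20 bases from it. In the Acta2 sequence (chr19:34255354-34255483, minus strand) the capitals mark 2 CArG boxes, the element bound by serum response factor and found in contractile genes, and 1 match of the TATA box (searched as TATATAA). In the Postn sequence (chr3:54360997-54361126, plus strand) the capitals mark the TATA box alone.
Acta2: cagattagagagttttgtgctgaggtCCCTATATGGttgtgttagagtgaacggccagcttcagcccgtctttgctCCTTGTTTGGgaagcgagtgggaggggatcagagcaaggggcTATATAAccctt
Postn: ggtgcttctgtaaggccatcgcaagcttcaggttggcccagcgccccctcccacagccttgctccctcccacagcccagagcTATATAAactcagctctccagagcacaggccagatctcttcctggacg

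The CArG boxes of Acta2 began 84 and 34 bases before the RefSeq start site. Its TATATAA match began at base 9, after that start site, and whether it serves as a TATA box was not tested. The TATA box of Postn began 28 bases before the start site shown, which is the gene start in the tables. A further Postn window, with a start site 1840 bases from it, held neither motif. Both strands were searched, the central A and T stretch of a CArG box was allowed at most 1 C or G, and no marked motif overlapped another. Over all 32851 windows of the same length, 9.98% held a CArG box by this rule and 3.24% held a TATA box. Neither motif was found in the Pdgfra window, whose start site lay 40 bases from the gene start in the tables.

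Total counts were between 16487902 and 19589339 per library, and a count of 0 allowed up to 0.182 CPM (TMM-scaled counts, brought to the same total in each library). The plasma cell genes Sdc1 and Xbp1 and the tumor antigen gene Trap1a, carried by J558, were present in every library, at 241.1 CPM or more, whereas the B cell gene Pax5 had no counts. The library TAK-931-1 stood apart. Its summed level of 12 plasma cell and J558 genes was 6189 CPM against 15320 to 18090 CPM in the other 3 libraries, and its summed level of 20 skeletal muscle genes was 1267 CPM against 46.4 to 167.1 CPM. Because of this difference each result is also given for the treated libraries one by one. In bulk tumor RNA, more cells of a type and more RNA per cell cannot be told apart. The labels called the samples independent without saying what was separate, so the p-values measure the spread between these samples.

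Of the 10 genes, 8 had a mean level in the TAK-931 tumors more than 2-fold above vehicle, whereas the contractile genes Acta2 and Tagln did not. No gene passed an adjusted p under 0.05 in edgeR's quasi-likelihood test, among the 10 or among all 13669 genes tested (0% called), and the lowest adjusted p over all genes was 0.275. Without adjustment, 6 of the 10 genes had a p under 0.05 and were higher with TAK-931 (Pdgfrb, Thy1, Dcn, Lum, Postn and Fn1), against 11.6% of all genes tested. DESeq2 called the same 6 genes at an adjusted p under 0.05, all of them higher, against 9.78% called higher of the genes to which it gave one, and limma-voom called none. Unadjusted, limma-voom gave 2 of the 10 a p under 0.05 (Postn and Fn1), near the 14.3% of all genes with such a p in either direction. Without TAK-931-1, 4 of the 10 passed the adjusted threshold in edgeR (Pdgfrb, Dcn, Postn and Fn1) among 3996 of 13915 genes tested, and without TAK-931-2, 8 of the 10 passed among 8424 of 14506; in both fits the lone treated library was assumed to vary like the vehicle pair. The treated libraries were unequal: as a median over the 10 genes, the log2 ratio to the mean of the vehicle libraries was 2.91 for TAK-931-1 but 0.80 for TAK-931-2.

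**Figure D1:**
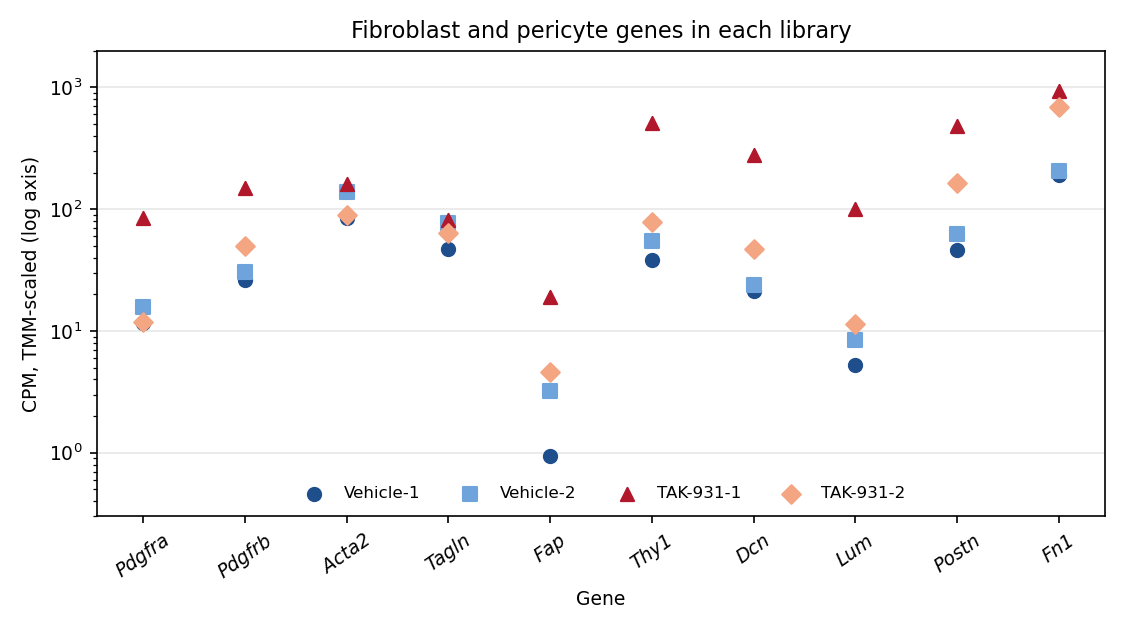
Level of each of the 10 genes in each of the 4 libraries, in TMM-scaled CPM on a logarithmic vertical axis, with genes along the horizontal axis and a symbol for each library. All 10 genes were highest in TAK-931-1, and TAK-931-2 lay above both vehicle libraries for 7 genes but not for Pdgfra, Acta2 and Tagln.

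The receptor genes are described first. Pdgfra (chr5:75152291-75198204, plus strand) encodes the alpha receptor for platelet-derived growth factors and marks many tissue fibroblasts. Its level was 11.6 and 15.8 CPM in Vehicle-1 and Vehicle-2 and 84.9 and 11.9 CPM in TAK-931-1 and TAK-931-2, respectively. TAK-931-1 was far above the other libraries, and TAK-931-2 lay between the vehicle libraries, so the groups overlapped. Its log2 fold change was 1.82 (SE 0.97, 95% interval −0.79 to 4.44, adjusted p = 0.337), and without TAK-931-1 it was −0.20.

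Pdgfrb (chr18:61045150-61085067, plus strand) encodes the beta receptor, which pericytes need for their recruitment to vessels and which fibroblasts also carry. It was at 26.1 and 30.3 CPM in Vehicle-1 and Vehicle-2 and 148.5 and 49.97 CPM in TAK-931-1 and TAK-931-2, respectively. Both treated libraries were above both vehicle libraries, and the gap was wider for TAK-931-1. The log2 fold change was 1.82 (SE 0.58, 95% interval 0.25 to 3.38, adjusted p = 0.275), and without TAK-931-1 it was 0.82. The 2 receptors had nearly the same fitted fold change, but that of Pdgfra rested on TAK-931-1 alone while TAK-931-2 held 1.77-fold the vehicle mean of Pdgfrb. Per kilobase, the level of Pdgfrb over that of Pdgfra was 2.79 and 2.40 in the vehicle libraries, against 2.18 and 5.20 in TAK-931-1 and TAK-931-2.

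The ligands of these receptors were low and, like the receptors, highest in TAK-931-1. Pdgfb, the ligand through which vessels recruit pericytes, was at 11.97 and 11.0 CPM with vehicle, against 58.1 and 20.8 CPM in TAK-931-1 and TAK-931-2 (log2 fold change 1.78, adjusted p = 0.275). Pdgfc, a ligand of the alpha receptor, was at 3.32 and 4.01 CPM with vehicle, against 32.9 and 5.48 CPM in TAK-931-1 and TAK-931-2 (log2 fold change 2.39, adjusted p = 0.281). Pdgfa was at 1.84 and 2.04 CPM with vehicle, against 7.10 and 2.04 CPM in TAK-931-1 and TAK-931-2. Pdgfd, the other ligand that binds the beta receptor, was at 0.415 and 0.240 CPM with vehicle, against 7.15 and 0.583 CPM in TAK-931-1 and TAK-931-2. All 4 ligands had a positive log2 fold change, and 1 of 4, Pdgfb, had an unadjusted p under 0.05, against 51.0% and 11.6% of all genes. This count was 0 without Vehicle-2 and 4 without TAK-931-2, where 6.98% and 63.1% of all genes had such a p in either direction.

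The contractile genes had the smallest fold changes of the 10, and both intervals held 0. Acta2 (chr19:34240336-34255373, minus strand), whose promoter holds the CArG boxes shown above, encodes smooth muscle actin, the filament protein of pericytes, smooth muscle and contractile fibroblasts. Its level was 85.1 and 139.0 CPM in Vehicle-1 and Vehicle-2 and 161.2 and 89.9 CPM in TAK-931-1 and TAK-931-2, respectively. The groups overlapped, and the vehicle libraries differed from each other by nearly as much as the treated libraries did. TAK-931 minus vehicle gave a log2 fold change of 0.17 (SE 0.42, 95% interval −0.97 to 1.30, adjusted p = 0.827).

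Tagln (chr9:45929628-45936058, minus strand) encodes transgelin, an actin-binding protein of smooth muscle and related cells. It was at 47.1 and 77.7 CPM in Vehicle-1 and Vehicle-2 and 80.8 and 63.2 CPM in TAK-931-1 and TAK-931-2, respectively. Here too the groups overlapped, since TAK-931-2 lay between the vehicle libraries. Fitted over all libraries, the log2 fold change was 0.21 (SE 0.33, 95% interval −0.69 to 1.11, adjusted p = 0.722). The end of Tagln overlaps the end of Pcsk7 on the other strand, which had between 801 and 1013 counts per library, and the strand setting of the counting was not stated, so a share of the Tagln counts may belong to Pcsk7. Per kilobase, the level of Tagln over that of Acta2 was 0.897 and 0.906 in the vehicle libraries, against 0.812 and 1.14 in TAK-931-1 and TAK-931-2. The sign of both fold changes depended on single libraries: without Vehicle-1, the log2 fold change was −0.15 for Acta2 and −0.11 for Tagln, and without TAK-931-1 it was −0.32 for Acta2.

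Summed over both genes, the contractile level was 132.2 and 216.6 CPM with vehicle, against 242.0 and 153.1 CPM in TAK-931-1 and TAK-931-2. The other 8 genes summed to 338.2 and 405.9 CPM with vehicle, against 2572 and 1053 CPM in TAK-931-1 and TAK-931-2. The treated libraries therefore held 6.91-fold and 2.83-fold the vehicle mean of the 8 genes, but 1.39-fold and 0.878-fold that of the contractile pair. Fn1 made up 685.8 of the 1053 CPM in TAK-931-2, and the sum of all 10 genes there was 2.21-fold the vehicle mean with Fn1 and 1.49-fold without it. Relative to periostin, a matrix gene, Acta2 was lower in both treated libraries: the level per kilobase of Acta2 over that of Postn was 2.37 and 2.85 with vehicle, against 0.425 and 0.699 in TAK-931-1 and TAK-931-2.

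Other pericyte and smooth muscle genes lay, by their median, between the contractile pair and the other fibroblast genes. Of 27 measured, 26 were tested, 22 had a log2 fold change above 0 (51.0% of all genes tested did) and 4 below, and the median was 1.13 against 0.02 for all genes. Both treated libraries were above both vehicle libraries for 12 of the 26 and below them for 2 (Actg2 and Srf), against 29.9% and 32.8% of all genes. By unadjusted p, 3 of 26 were higher (Anpep, Rgs4 and Ednra) and none lower, against 11.6% and 6.55% of all genes, and none passed the adjusted threshold. The 3 became 1 without Vehicle-1, 6 higher with 5 lower without TAK-931-1, and 20 higher with 1 lower without TAK-931-2, while the share of all genes with such a p in either direction was 6.86%, 40.8% and 63.1% in those fits. Set against vehicle, their median log2 ratio was 1.56 for TAK-931-1 but 0.20 for TAK-931-2, where 14 genes were above and 10 below both vehicle libraries, against 42.3% and 44.4% of all genes.

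The 3 of these genes with the highest mean CPM per kilobase over the 4 libraries were Tpm1, Mcam and Des, the last through its level in TAK-931-1. Tpm1, a tropomyosin of actin filaments, was at 100.2 and 122.2 CPM with vehicle, against 220.4 and 78.95 CPM in TAK-931-1 and TAK-931-2. Mcam, an adhesion protein of pericytes and endothelium, was at 57.7 and 72.7 CPM with vehicle, against 125.5 and 51.5 CPM in TAK-931-1 and TAK-931-2. Des, the intermediate filament protein of pericytes and of skeletal muscle, was at 43.5 and 47.3 CPM with vehicle, against 289.9 and 11.7 CPM in TAK-931-1 and TAK-931-2. All 3 were highest in TAK-931-1 and lowest in TAK-931-2. Not all genes of the list had this order: Srf, the serum response factor, was at 66.4 and 61.2 CPM with vehicle, against 51.4 and 52.2 CPM in TAK-931-1 and TAK-931-2, and Cox4i2 was between 13.7 and 16.2 CPM in all libraries. Skeletal muscle actin (Acta1) was likewise highest in TAK-931-1 and lowest in TAK-931-2, at 54.4 and 48.4 CPM with vehicle, against 343.5 and 0.525 CPM in TAK-931-1 and TAK-931-2, and the part of muscle tissue in the levels of Des was not tested.

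**Figure D2:**
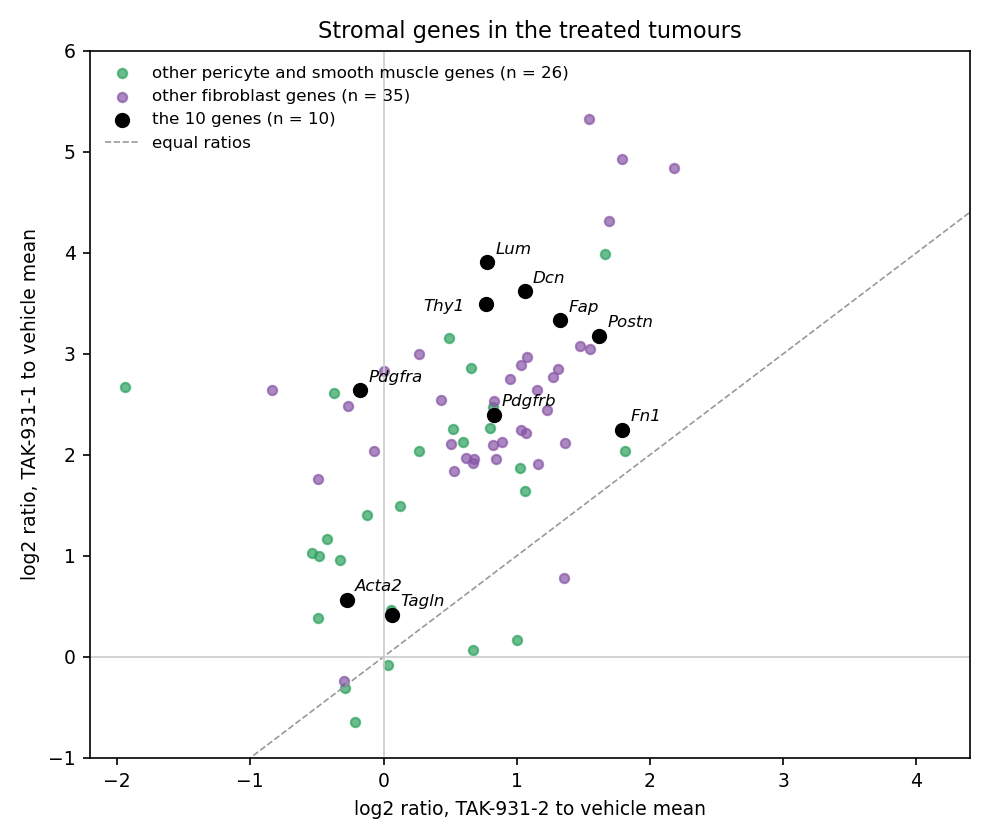
Log2 ratio of each gene to the vehicle mean in TAK-931-2 (horizontal axis) and in TAK-931-1 (vertical axis), with the 10 genes in black and named, 35 other fibroblast genes in purple and 26 other pericyte and smooth muscle genes in green; the dashed line marks equal ratios. Acta2 and Tagln lie within 1 of 0 on both axes, Fn1 is the nearest of the other 8 to the dashed line, and Pdgfra is high only in TAK-931-1.

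Fap and Thy1 are surface proteins used to mark activated fibroblasts. Fap (chr2:62500936-62574021, minus strand) encodes fibroblast activation protein, a membrane serine protease. It was the lowest of the 10 genes per kilobase in both groups, at 0.948 and 3.23 CPM in Vehicle-1 and Vehicle-2 and 18.9 and 4.61 CPM in TAK-931-1 and TAK-931-2, respectively, from counts of 16, 54, 360 and 79. Both treated libraries were above both vehicle libraries, but the gap between Vehicle-2 and TAK-931-2 was smaller than that between the vehicle libraries, which differed 3.41-fold. The log2 fold change was 2.49 (SE 1.03, 95% interval −0.28 to 5.27, adjusted p = 0.283), and it was 1.13 without TAK-931-1 and 3.59 without Vehicle-2. Of the 4 related peptidases, 2 had a positive log2 fold change, near the 51.0% of all genes tested, and the median was −0.03. Prep was at 103.1 and 98.9 CPM with vehicle, against 56.8 and 75.7 CPM in TAK-931-1 and TAK-931-2, below vehicle in both (adjusted p = 0.279). Dpp9 had a log2 fold change of −0.24 (adjusted p = 0.587) and Dpp8 of 0.17 (adjusted p = 0.628). Dpp4, the closest relative of Fap, was at 1.42 and 1.20 CPM with vehicle, against 25.8 and 2.04 CPM in TAK-931-1 and TAK-931-2.

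Thy1 (chr9:44043384-44048579, plus strand) encodes a small lipid-anchored glycoprotein of fibroblasts, T cells and neurons. It was at 38.05 and 54.9 CPM in Vehicle-1 and Vehicle-2 and 514.1 and 77.8 CPM in TAK-931-1 and TAK-931-2, respectively. Both treated libraries were above both vehicle libraries, and TAK-931-1 held 6.61-fold the level of TAK-931-2. For Thy1 the log2 fold change was 2.67 (SE 0.97, 95% interval 0.06 to 5.29, adjusted p = 0.275), and without TAK-931-1 it was 0.74. T cell markers were also highest in TAK-931-1, with TAK-931-2 next. Their 20 genes summed to 123.5 and 100.5 CPM with vehicle, against 1860 and 221.6 CPM in TAK-931-1 and TAK-931-2, and the T cell receptor subunit Cd3e was at 1.90, 0.359, 135.9 and 7.70 CPM in the same order. The part of T cells in the level of Thy1 was not tested.

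Of the 10 genes, the proteoglycans Lum and Dcn had the largest fold changes in the edgeR fit of all libraries with treatment alone. Fap was largest with limma-voom (2.436, against 2.404 for Lum). With a term for the replicate number, Postn was largest (2.401, against 2.362 for Lum). Without TAK-931-1, the fold changes of Fn1 (1.79), Postn (1.60) and Fap (1.13) were larger than those of Lum and Dcn. Dcn (chr10:97479500-97518162, plus strand) encodes decorin, a small leucine-rich proteoglycan that binds collagen fibrils. Its level was 21.2 and 23.7 CPM in Vehicle-1 and Vehicle-2 and 277.6 and 46.9 CPM in TAK-931-1 and TAK-931-2, respectively. The vehicle libraries were close together and both treated libraries were above them. For decorin the log2 fold change was 2.85 (SE 0.91, 95% interval 0.40 to 5.31, adjusted p = 0.275), and without TAK-931-1 it was 1.06.

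Lum (chr10:97565501-97572703, plus strand) lies next to Dcn on the chromosome and encodes lumican, a proteoglycan that regulates the assembly of collagen fibrils. It was at 5.22 and 8.39 CPM in Vehicle-1 and Vehicle-2 and 100.9 and 11.4 CPM in TAK-931-1 and TAK-931-2, respectively. Both treated libraries were above vehicle, but TAK-931-2 only by about as much as the vehicle libraries differed. For lumican the log2 fold change was 3.05 (SE 1.12, 95% interval 0.02 to 6.08, adjusted p = 0.276). In this fit the fold change and its SE were the highest of the 10. Without TAK-931-1 the fold change of Lum was 0.75, and without Vehicle-2 it was 3.39, below that of Fap (3.59). Per kilobase, the level of Dcn over that of Lum was 4.05 and 2.82 with vehicle, against 2.74 and 4.08 in TAK-931-1 and TAK-931-2, so the ratio did not separate the groups.

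Among the other small leucine-rich proteoglycans, 6 of 10 measured genes were tested, and Kera, Epyc and Optc had no counts in any library. All 6 had a positive log2 fold change, with a median of 1.79, and 2 of 6 had an unadjusted p under 0.05, against 51.0% and 11.6% of all genes. Their median log2 ratio to vehicle was 2.34 for TAK-931-1 but 0.44 for TAK-931-2. In TAK-931-2, 4 genes were above and 2 below both vehicle libraries, against 42.3% and 44.4% of all genes. Without TAK-931-1 their median log2 fold change was 0.44. Ogn was at 1.36 and 1.44 CPM with vehicle, against 39.1 and 1.28 CPM in TAK-931-1 and TAK-931-2. Bgn, biglycan, was at 202.5 and 216.0 CPM with vehicle, against 1373 and 527.4 CPM in TAK-931-1 and TAK-931-2 (log2 fold change 2.18, adjusted p = 0.275). Aspn, asporin, was at 3.32 and 6.95 CPM with vehicle, against 58.3 and 11.7 CPM in TAK-931-1 and TAK-931-2 (log2 fold change 2.77, adjusted p = 0.275). Prelp was at 15.1 and 12.2 CPM with vehicle, against 34.3 and 11.9 CPM in TAK-931-1 and TAK-931-2, so that TAK-931-2 was not above vehicle.

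Postn (chr3:54361107-54391041, plus strand) encodes periostin, a secreted matrix protein of activated fibroblasts that binds integrins and fibronectin. It was at 45.9 and 62.5 CPM in Vehicle-1 and Vehicle-2 and 486.0 and 164.8 CPM in TAK-931-1 and TAK-931-2, respectively. Both treated libraries were well above both vehicle libraries. The log2 fold change was 2.59 (SE 0.61, 95% interval 0.93 to 4.24, adjusted p = 0.275), and it was 1.60 without TAK-931-1 and 3.14 without TAK-931-2.

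Fn1 (chr1:71585473-71653234, minus strand) encodes fibronectin, the adhesive glycoprotein of the provisional matrix. It had the highest counts of the 10 genes, with 189.1 and 207.1 CPM in Vehicle-1 and Vehicle-2 and 940.9 and 685.8 CPM in TAK-931-1 and TAK-931-2, respectively. The libraries of each group were close together and the groups were far apart. For fibronectin the log2 fold change was 2.04 (SE 0.28, 95% interval 1.28 to 2.79), with the smallest SE and the smallest unadjusted p of the 10 (0.00132), yet its adjusted p was also 0.275. The treated libraries held 4.75-fold and 3.46-fold the vehicle mean, and without TAK-931-1 the log2 fold change was 1.79. The ratio to vehicle of Fn1 was above that of 85.6% of tested genes in TAK-931-1 but of 95.4% in TAK-931-2. For Lum the order was the reverse, with 96.4% for TAK-931-1 but 83.5% for TAK-931-2.

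The receptors and relatives of fibronectin and periostin were nearly all higher in both treated libraries. All 12 genes had a positive log2 fold change (median 1.60), both treated libraries were above both vehicle libraries for 11 of 12, and 5 of 12 had an unadjusted p under 0.05 (Itga4, Itgav, Sdc4, Tgfbi and Tnn), a count that was 3 without Vehicle-2 and 11 without TAK-931-2 (6.98% and 63.1% of all genes in those fits). Of all genes tested, 51.0% had a fold change above 0, 29.9% were higher in both treated libraries and 11.6% were higher by unadjusted p. Tgfbi, a secreted relative of periostin, was at 46.0 and 38.6 CPM with vehicle, against 422.0 and 130.5 CPM in TAK-931-1 and TAK-931-2 (log2 fold change 2.71, adjusted p = 0.275). Itgb1, the shared beta subunit of many matrix receptors, was at 108.7 and 126.1 CPM with vehicle, against 501.5 and 135.9 CPM in TAK-931-1 and TAK-931-2 (adjusted p = 0.305). Itgb5 was at 99.3 and 106.8 CPM with vehicle, against 241.4 and 98.3 CPM in TAK-931-1 and TAK-931-2, the 1 gene of the 12 that was not higher in TAK-931-2.

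**Figure D3:**
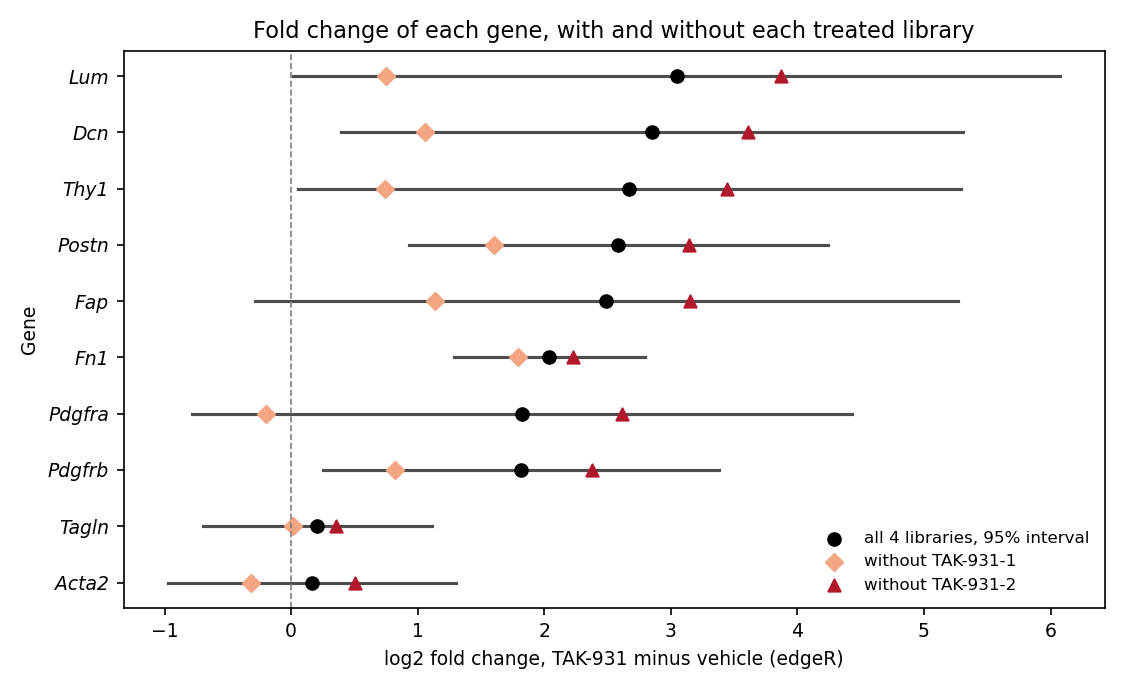
Log2 fold change, TAK-931 minus vehicle, of each gene from edgeR with its 95% interval (black, all 4 libraries) and refitted without TAK-931-1 (orange diamonds) or without TAK-931-2 (red triangles); genes are on the vertical axis. The interval excludes 0 for 6 genes, Fn1 has the narrowest interval and lies between 1.79 and 2.23 in the refits, and Pdgfra and Acta2 fall below 0 without TAK-931-1.

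Counted over the genes, all 10 had a log2 fold change above 0, against 51.0% of all genes tested. Over 1 it was for 8 of 10, against 23.3%, and 7 of 10 were higher in both treated libraries than in both vehicle libraries, against 29.9%. TAK-931-2 alone was above both vehicle libraries for the same 7, against 42.3% of all genes. All 10 were highest in TAK-931-1, against 41.1% of all genes. In TAK-931-1, 8 of 10 genes were over 2-fold the vehicle mean, against 28.1% of all genes. In TAK-931-2 this held for 4 of 10 (Fap, Dcn, Postn and Fn1), against 12.2%. The median log2 fold change of the 10 was 2.26, and it was 0.78 without TAK-931-1 and 2.88 without TAK-931-2. Without TAK-931-1, 4 of 10 genes had a log2 fold change over 1 (Fap, Dcn, Postn and Fn1).

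The order of the genes by level per kilobase differed between the groups. In the vehicle tumors Acta2 was first with a mean of 43.6 CPM per kilobase, followed by Tagln with 39.3, Thy1 with 26.8 and Fn1 with 23.5, and each of these overlapped its neighbor over the libraries. Below them stood Postn (16.5 CPM per kilobase), Dcn (10.8), Pdgfrb (5.21), Lum (3.28), Pdgfra (2.03) and Fap (0.774), and no pair of neighbors among these overlapped. In the TAK-931 tumors Thy1 was first with 170.6 CPM per kilobase, then Postn with 98.8, Fn1 with 96.5, Dcn with 77.9, Acta2 with 48.8, Tagln with 45.4 and Lum with 27.1. Pdgfrb (18.3 CPM per kilobase), Pdgfra (7.19) and Fap (4.35) were again low, and every pair of neighbors overlapped because the treated libraries were far apart. The order also differed between these libraries. In TAK-931-2 Fn1 was first with 81.4 CPM per kilobase, then Postn with 50.02, Thy1 with 44.9, Tagln with 39.8 and Acta2 with 34.96, and Dcn with 22.5 was below the contractile pair.

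Most other fibroblast genes were also higher in both treated libraries. Of 36 measured, Tcf21 had no counts and 35 were tested. Among these, 34 had a positive log2 fold change, 28 were higher in both treated libraries than in both vehicle libraries, and 23 had an unadjusted p under 0.05, all of them higher with TAK-931. The shares of all genes tested were 51.0%, 29.9% and 11.6%, respectively. None passed the adjusted threshold, and the count of 23 was 10 without Vehicle-1, 15 with limma-voom and 32 without TAK-931-2, where 6.86%, 14.3% and 63.1% of all genes had such a p in either direction. The median log2 fold change was 1.79, and the median log2 ratio was 2.49 for TAK-931-1 but 0.95 for TAK-931-2. Col1a1, a chain of type I collagen, was at 700.5 and 739.8 CPM with vehicle, against 5935 and 2106 CPM in TAK-931-1 and TAK-931-2 (log2 fold change 2.48, adjusted p = 0.275). Col1a2, the other chain, was at 617.6 and 721.8 CPM with vehicle, against 4819 and 1655 CPM in TAK-931-1 and TAK-931-2 (log2 fold change 2.27, adjusted p = 0.275). Sparc, a collagen-binding protein that vessels also make, was at 544.7 and 685.2 CPM with vehicle, against 2384 and 939.7 CPM in TAK-931-1 and TAK-931-2. Twist1, a transcription factor of mesenchymal cells, was below vehicle in both treated libraries, at 12.3 and 12.8 CPM with vehicle, against 10.6 and 10.2 CPM in TAK-931-1 and TAK-931-2 (log2 fold change −0.27, adjusted p = 0.657). In TAK-931-2 alone, Dpt, Cd34, Twist2 and Prrx1 were also below the vehicle mean, at 0.524-fold, 0.701-fold, 0.804-fold and 0.944-fold, and Fbln1 and Clec3b were not above both vehicle libraries. Ctgf was higher in TAK-931-2 than in TAK-931-1.

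Of the markers of other cell types, those of T cells, of monocytes and macrophages and of nerve were higher, in sum, in both treated libraries, as the 10 genes were in sum, and the others were not. The 18 monocyte and macrophage genes summed to 700.7 and 597.9 CPM with vehicle, against 10080 and 1823 CPM in TAK-931-1 and TAK-931-2, and Csf1r was at 42.5, 38.2, 586.7 and 101.7 CPM. The 20 endothelial genes summed to 623.9 and 696.2 CPM with vehicle, against 2054 and 624.9 CPM in TAK-931-1 and TAK-931-2, so that they were higher in TAK-931-1 and within the vehicle range in TAK-931-2. Pecam1, an adhesion protein of endothelium, was at 126.3, 125.8, 321.4 and 106.8 CPM. Adipocyte genes summed to 68.3 and 88.0 CPM with vehicle, against 755.3 and 57.3 CPM in TAK-931-1 and TAK-931-2, and nerve and Schwann cell genes to 23.3, 23.6, 119.8 and 34.9 CPM. Keratinocyte genes summed to 59.1 and 95.2 CPM with vehicle, against 55.3 and 51.6 CPM in TAK-931-1 and TAK-931-2. The part of these cells, and of tissue around the tumor, in the levels of the 10 genes was not tested.

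**Figure D4:**
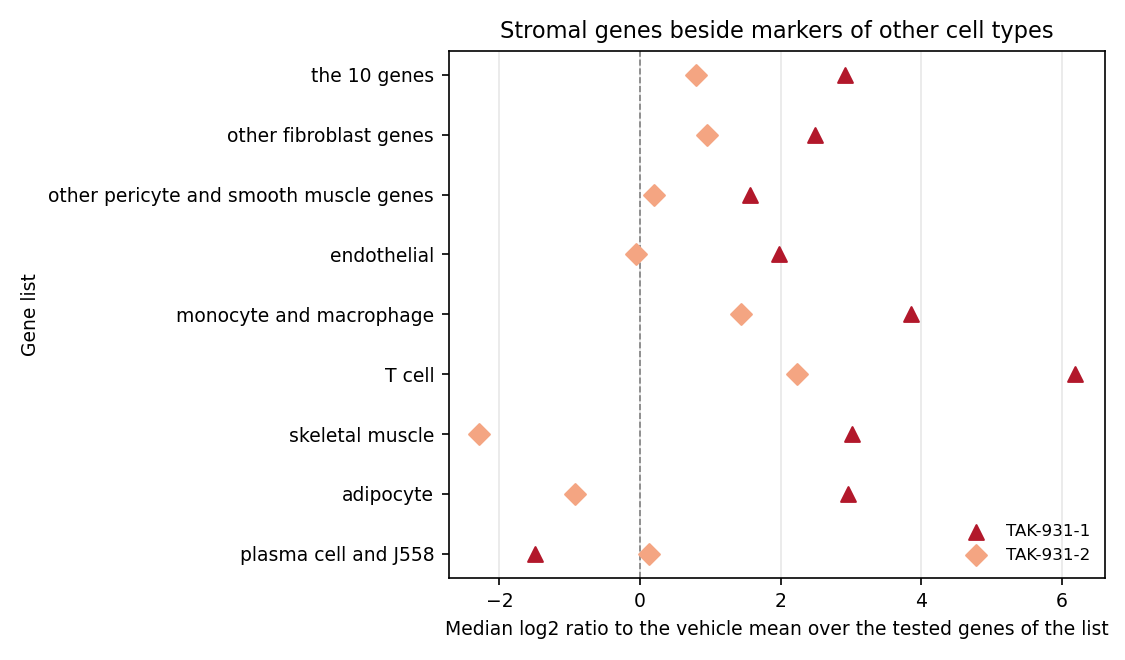
Median, over the tested genes of each list, of the log2 ratio to the mean of the vehicle libraries, for TAK-931-1 (red triangles) and TAK-931-2 (orange diamonds), with the lists on the vertical axis. The 10 genes are at 2.91 and 0.80, skeletal muscle is at 3.01 in TAK-931-1 and at −2.30 in TAK-931-2, and the plasma cell and J558 genes are below 0 in TAK-931-1.

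Among 7 lists of stromal and other marker genes, the 10 genes differed in which list had the nearest profile over the 4 libraries, measured as the root mean square difference of log2 CPM after each profile was set to a mean of 0. Pdgfrb was nearest to the median profile of the other fibroblast genes, at a distance of 0.062, and so were Postn (0.362), Fn1 (0.442) and Fap (0.632). Acta2 and Tagln were nearest to the other pericyte and smooth muscle genes, at 0.385 and 0.444. Dcn (0.237), Thy1 (0.413) and Lum (0.465) were nearest to the monocyte and macrophage genes, and Pdgfra was nearest to the endothelial genes (0.351). These distances rest on 4 libraries, of which 2 are of each group, and describe only how the values lay.

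Single genes with the most similar profile were found by the same measure among 9608 genes with a mean log2 CPM over 3. The nearest to Pdgfra was Pde2a (0.0775) and the next was the tropomyosin Tpm2 (0.0900). The nearest to Pdgfrb was Abcg1 (0.0168), and among its 5 nearest genes was the membrane protease Mmp14. For Postn they were Csf1 (0.0632) and the collagen gene Col5a2 (0.0837), and for Fap they were Mmp12 (0.228) and the proteoglycan Aspn (0.245). For Fn1 the nearest gene was Cybb (0.0492), a subunit of the phagocyte oxidase, for Dcn it was Cotl1 (0.0384), and for Thy1 it was Kcnj10 (0.0925). Lum was nearest to the chemokine Ccl9 (0.107), Acta2 to Grasp (0.0825) and Tagln to Uvssa (0.0352). Over all 10 genes, 48 of the 50 similar genes were found again when a smaller prior count was added to the counts.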

How the data were processed

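RNA was sequenced from 4 J558 allografts. Per the submitters' processing notes, STAR 2.6.1c, featureCounts and mm10 were used; the annotation release and the strand setting were not given in the sources used here. The deposited tables, 1 for each library, hold raw read counts for every gene, which the authors did not normalize, and another column, the summed exon length in bases. Small counts were mostly even (17.9% to 23.9% of counts from 1 to 20 were odd), so both mates of a pair appear to be counted singly and counting error is larger than the counts imply.

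Genes were filtered with filterByExpr (minimum count 10), scaled by TMM and tested with edgeR 4.0.16 in R 4.3.3 (robust quasi-likelihood test, two-sided, treatment as the only term, all 4 libraries, Benjamini-Hochberg adjustment over 13669 genes at 0.05). An exact test of 2 against 2 libraries cannot go below p = 0.333. CPM values were TMM-scaled, levels were compared between genes per kilobase of exon length, and log2 ratios used a prior count of 2. The code was also run on simulated counts with 200 genes changed, and no recovery rate at the spread of these data is given here.

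The 10 genes and all lists were chosen with earlier results of these data known. Named beside them were the PDGF ligands, the 3 genes of each related list with the highest CPM per kilobase, the 5 genes nearest in profile to each member (of which the nearest are given), and Trap1a, Cd3e, Csf1r, Pecam1 and Acta1 as markers of other cells. Dpp4, Twist1, Srf, Cox4i2, the genes named as called or as exceptions in a list, Sdc1, Xbp1, Pax5 and the promoter motifs were chosen after values were seen. In the lists Ccn2 was matched as Ctgf. Alternatives were other scalings, filters and tools (DESeq2 1.42.0, voom of limma 3.58.1), halved counts, a fit without robust estimation, a replicate block and each library left out. Immunoglobulin chain genes and 1 B cell gene are not reported here.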

Additional observations from a re-analysis of the deposited data

How the results depend on the processing

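Of the log2 fold changes of the 10 genes under 13 alternatives each, 108 kept their direction and their side of the threshold, 18 passed it newly and 4 reversed: Acta2 was at −0.15 without Vehicle-1 and at −0.32 without TAK-931-1, Tagln at −0.11 without Vehicle-1, and Pdgfra at −0.20 without TAK-931-1. Over the libraries left out, their highest values were 0.54 for Acta2, 0.59 for Tagln and 2.61 for Pdgfra. With all libraries kept, no alternative reversed a gene. At an adjusted p under 0.05, DESeq2 called 1411 genes, where edgeR called 0. Among these were 6 of the 10 (adjusted p from 1.85e-06 for Fn1 to 0.0228 for Pdgfrb) and 31 of the 87 related-list genes tested. Of all genes to which DESeq2 gave an adjusted p, 9.78% were called higher. With the replicate block, edgeR called 144 genes, 2 related-list genes (Ly6a and Anpep) and 0 of the 10. The 2 pairs were formed by replicate number alone. Their deviations had a correlation of 0.0041, which cannot show whether the pairs shared anything more, because TAK-931-1 stood apart. Leaving out single libraries gave 0 to 8424 genes in all, 0 to 8 of the 10 and 0 to 75 related-list genes. The high counts came without TAK-931-2 (8424 and 8) and without TAK-931-1 (3996 and 4), when the lone treated library was assumed to vary like the vehicle pair, and without either vehicle library the count was 0. The number of the 10 that were higher at an unadjusted p under 0.05 was 6, and 2 with limma-voom (Postn and Fn1). It was 8 with DESeq2, 7 with every gene with a count kept and 5 with halved counts. In those fits 23.5%, 15.9% and 18.9% of all genes had such a p in either direction. For the related lists this number was 34, with 56 by DESeq2, 22 by limma-voom and 19 to 74 with single libraries left out. The number of the 10 with a log2 fold change over 1 was 8, and 4 without TAK-931-1; their median was 2.26, and 0.78 to 2.88 with single libraries left out. The causes were not tested. Keeping every gene with a count moved the median of all genes to 0.12. The lowest count among the 10 genes was 16, for Fap in Vehicle-1, whose level there is the least precise.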
